A study of Mus musculus with 4 samples.

Results

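The CHD family is a group of ATP-dependent chromatin remodelers, enzymes that use ATP to slide, space or evict nucleosomes. Most members join a Snf2-type ATPase motor to a pair of chromodomains, modules that can bind methylated histone tails. Chd1 and Chd2 form subfamily I, and Chd1 is found with the elongating RNA polymerase at transcribed genes and recognises methylated lysine 4 of histone H3. Chd3 and Chd4 (subfamily II) are the motors of the NuRD histone deacetylase complex. Chd6, Chd7, Chd8 and Chd9 form subfamily III. Chd1l (also called ALC1) is a relative without chromodomains, whose motor is switched on by poly(ADP-ribose). In embryonic stem cells Chd1 is known for keeping chromatin open.

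RNA-seq was available from 4 libraries of mouse embryonic stem (ES) cells, in sets 1 and 2 of 1 control and 1 Chd1-null library each. All cells carried the inducible recombinase Rosa26CreER and Chd1fl/-, that is 1 floxed and 1 null allele of Chd1, so the controls had 1 functional allele and are not wild type. Controls received ethanol and Chd1-null cells 1 µM tamoxifen for 48 to 72 h, followed by 3 to 5 passages in serum with LIF and without tamoxifen. The labels' protocols name 2 independently derived lines, with RNA from equal cell numbers and spike-in RNA, but do not say which line a set came from. The unit was read as FPKM, in which fragment numbers are divided by transcript length and by library depth. Levels were set side by side between genes on that basis, though ratios still varied with coding length, as given below. Whether separate cultures stood behind the sets is known only from that protocol. P-values of the main fit rest on a spread between these 2 sets that is shared by genes of similar level and may be technical. A gene's own difference between the sets does not widen it.

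The 9 members were looked up by exact gene symbol in both tables, and 8 were found, of 11728 symbols present in both: Chd1, Chd1l, Chd3, Chd4, Chd6, Chd7, Chd8 and Chd9. All 8 passed the filter of a mean of at least 1 FPKM, as did 10261 genes in all. Chd2 was listed in both tables only in a locus merged with 1810026B05Rik. The value of that locus cannot be split between its genes, so it is given here as the Chd2 locus and left out of the counts. Chd5, the remaining subfamily II gene, was not among the 9 and stood between 0.293 and 0.820 FPKM in the 4 libraries.

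A paralog comparison needs reads that tell the members apart, and the sequences show how far they can. Each member holds the codons of the DEAH box, the ATPase motif for which the wider enzyme class is named, once in its coding sequence. The stretches below come from the GENCODE vM21 transcript with the longest coding sequence (build GRCm38) and lie in 1 coding exon each, with the 12 bases of the box in capitals. They are shown for the deleted gene, for its nearest relative and for 1 gene of each other branch. Chd1 is at chr17:15738497-15738556 (plus strand), Chd2 at chr7:73490595-73490654 (minus), Chd4 at chr6:125108737-125108796 (plus), Chd7 at chr4:8828319-8828378 (plus) and Chd1l at chr3:97597713-97597772 (minus).
Chd1: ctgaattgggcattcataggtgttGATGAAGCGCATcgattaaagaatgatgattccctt
Chd2: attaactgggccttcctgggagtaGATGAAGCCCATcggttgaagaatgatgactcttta
Chd4: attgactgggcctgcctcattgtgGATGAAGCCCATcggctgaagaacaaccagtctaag
Chd7: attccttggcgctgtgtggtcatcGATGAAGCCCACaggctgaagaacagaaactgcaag
Chd1l: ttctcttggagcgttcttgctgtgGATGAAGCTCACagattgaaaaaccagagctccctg

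Over these 60 bases, Chd1 was identical to Chd2 at 45 positions, to Chd4 at 36 and to Chd7 at 29. Across whole transcripts of the 9 members, the longest exact run shared by any of 36 pairs was 35 bases, between Chd3 (chr11:69353891-69354091, minus strand) and Chd4 (chr6:125113560-125113904, plus strand), in both across an exon junction of the coding sequence. It is printed because it is the closest that any pair came to the read length of 100 bases.
Chd3 and Chd4: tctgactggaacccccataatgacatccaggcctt
Chd1 shared at most 20 bases in a row with any other member. No pair shared a run as long as a read.

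Chd1 was measured first, as the targeted gene. The controls of sets 1 and 2 held 27.6 and 17.9 FPKM of Chd1, and the Chd1-null libraries 5.71 and 8.52. Both Chd1-null libraries were below both controls. Of all tested genes, 0.556% had a lower ratio than Chd1 in set 1 and 4.53% in set 2, which places it at rank 58 and rank 466 from the lowest. It fell by 1.66 on the log2 scale, with an SE of 0.25, in limma over all genes (n = 2 pairs, adjusted p = 1.8e-08). Its log2 ratios were -2.25 in set 1 and -1.06 in set 2, a difference that does not widen this SE. In limma Chd1 did not pass with one prior variance for all genes (adjusted p = 0.288), without set as a block (0.461) or with the level trend of each set removed (0.0645). The labels do not say which exons the recombinase removes. The value covers the whole locus, so what remained in Chd1-null cells does not measure functional transcript.

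Levels differed widely within the family. Chd4, the main NuRD motor, was the highest member in every library, with 118 and 84.0 FPKM in the controls of sets 1 and 2, and 79.7 and 79.5 in the Chd1-null libraries. It made up 56.8% and 52.6% of the summed FPKM of the 8 members in the controls. Chd3, the other NuRD motor, was the lowest in every library, between 0.914 and 2.81 FPKM. In between, control means were 22.7 ± 6.86 FPKM for Chd1, 18.9 ± 2.23 for Chd1l and 15.3 ± 4.40 for Chd8 (SD, n = 2), and the order of these 3 genes differed between the controls. Chd7 (8.80 ± 2.499), the Chd2 locus (8.39 ± 0.554), Chd9 (7.47 ± 1.11) and Chd6 (7.23 ± 1.24) followed, with differences within their spread. In Chd1-null cells Chd1 ranked after Chd4, Chd1l and Chd8 in both sets.

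**Figure D1:**
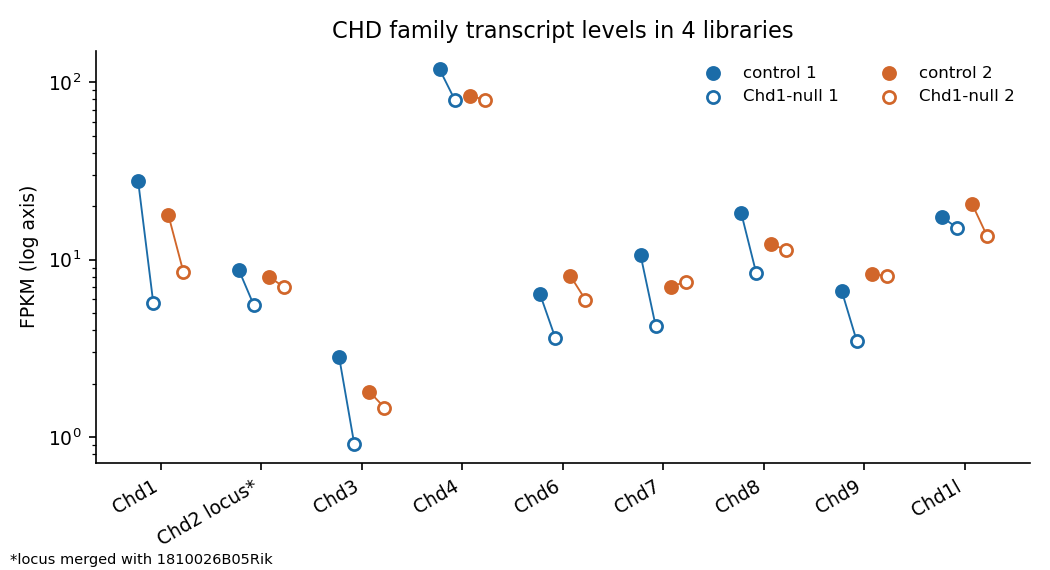
FPKM of each CHD family member (log axis) in control (filled) and Chd1-null (open) libraries of set 1 (blue) and set 2 (orange), with a line joining the libraries of a set. Chd1 is lower in both Chd1-null libraries, and of the 7 paralogs measured by symbol only Chd7 in set 2 is above its control.

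The first question was whether a paralog was higher on the deposited scale when Chd1 was lost. That scale is not shown to be per cell, since the use of the spike-ins in scaling is not given in the sources used here. None of the 7 paralogs rose on the deposited scale, and none fell (limma, adjusted p at least 0.089). Of all tested genes 9.80% fell and 0.0682% rose, so 1 call among the 8 members, Chd1 itself, is near the background share. Without adjustment Chd7 and Chd8 had p under 0.05, and both were toward lower levels. Of the 7 paralogs 6 stood below their control in each set, against 72.4% of all tested genes. The median paralog had log2 ratios of -0.92 (set 1) and -0.10 (set 2), where the median of all tested genes had -0.46 and -0.33.

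In subfamily II, Chd4 stood at 67.6% of control in set 1 and at 94.6% in set 2. Its log2 fold change was -0.32 with a limma 95% interval from -0.66 to 0.01. After scaling every library to its total, that value was 0.08, so its direction depends on the scaling. With that scaling the set 2 log2 ratios of Chd3, Chd6, Chd8 and Chd9 were also above 0 (0.16, 0.03, 0.37 and 0.44). Chd1l was above 0 in set 1 (0.12). The mean changes of these genes stayed below 0. Chd3 had 2.81 and 1.80 FPKM in the controls, and 0.914 and 1.46 in the Chd1-null libraries. The log2 fold change of Chd3 was -0.90 (interval -2.05 to 0.25), the widest interval of the family, at its lowest level. Chd3os, listed as a gene of its own, stood at 1.20 and 0.712 FPKM in set 1 and at 0.809 and 1.395 in set 2. The kit keeps strand, but how strand was counted is not given in the sources used here.

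In subfamily III, Chd6, Chd7, Chd8 and Chd9 all had lower ratios in set 1 than in set 2, as had 7 of the 8 members in all. Chd7, mutated in human CHARGE syndrome, had 10.6 FPKM in the control of set 1 and 4.22 in its Chd1-null library, but 7.03 and 7.50 in set 2. It was far below its control in set 1 and slightly above it in set 2, with log2 ratios of -1.31 and 0.09. Chd8, a regulator of Wnt target genes and a gene mutated in autism, stood at 18.4 and 8.42 FPKM in set 1 and at 12.2 and 11.3 in set 2. Chd8 had a log2 fold change of -0.61 (interval -1.10 to -0.12, limma adjusted p = 0.089). Chd9 was at 6.69 and 3.49 FPKM in set 1 and at 8.26 and 8.11 in set 2. Chd6 was the member of this subfamily with the most similar ratios, at 57.2% of control in set 1 and 73.4% in set 2. For Chd7, Chd8 and Chd9 the lower mean therefore rests mostly on set 1.

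Chd1l went the other way round. It stood at 17.4 and 15.1 FPKM in set 1 and at 20.5 and 13.5 in set 2, which is 86.9% and 65.8% of control. Both Chd1-null libraries were below both controls. The Chd2 locus, which carries the closest relative of Chd1, was at 8.78 and 5.55 FPKM in set 1 and at 7.998 and 7.01 in set 2. It too was lower in both Chd1-null libraries than in both controls. When merged loci were kept in the fit, a choice made after seeing the data, its log2 fold change was -0.42 (interval -1.01 to 0.17, limma adjusted p = 0.32). Chd3, Chd4, Chd6 and Chd8 were likewise lower in both Chd1-null libraries than in both controls, and Chd7 and Chd9 were not. The share of all tested genes with this order was not counted, but 72.4% of them were lower than control in both sets. The order is therefore not read as particular to these members.

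Summed over the 8 members, the family reached 207.7 and 159.8 FPKM in the controls of sets 1 and 2, and 121.2 and 135.8 in the Chd1-null libraries. Without Chd1, the sum of the 7 paralogs was 64.1% of control in set 1 and 89.7% in set 2. The paralog sum thus changed by -64.7 FPKM in set 1 and -14.6 in set 2, beside -21.9 and -9.35 FPKM for Chd1. On the deposited scale, paralog transcripts thus added to the family total in neither set. The median tested gene stood at 72.7% of control in set 1 and at 79.6% in set 2. Beside it the paralog sum was lower in set 1 and higher in set 2, so the reading of set 2 depends on the scale and that of set 1 does not. Chd4 carried most of the sum of the 8 members, Chd1 included, with a share of 65.8% and 58.5% in the Chd1-null libraries. That share also rises as Chd1 falls, since Chd1 is part of the sum.

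The second question was whether a paralog departed from the shift shared by most genes. The median tested gene stood at 72.7% of control in set 1 and at 79.6% in set 2, and these medians were subtracted from each set's log2 ratios. Chd1 fell by 1.26 beyond the median (limma SE 0.25, adjusted p = 0.00081; relative log2 ratios -1.79 and -0.73). Under the same 3 alternatives, and with a mean of at least 5 FPKM required, this call was lost (adjusted p from 0.156 to 0.9999). Over all genes 0.214% fell and 0.146% rose in this comparison. None of the 7 paralogs passed in either direction (limma, adjusted p = 0.998 for each; 0 at an unadjusted p under 0.05, the lowest being 0.335). The relative change was 1.05-fold for Chd4, 0.996-fold for Chd1l, 0.948-fold for Chd9, 0.863-fold for Chd7, 0.861-fold for Chd8, 0.858-fold for Chd6 and 0.704-fold for Chd3. The upper bounds of the 95% intervals ran from 1.21-fold for Chd8 to 1.44-fold for Chd3. These intervals use a spread shared by genes of similar level, so a member's own difference between the sets does not widen them.

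**Figure D2:**
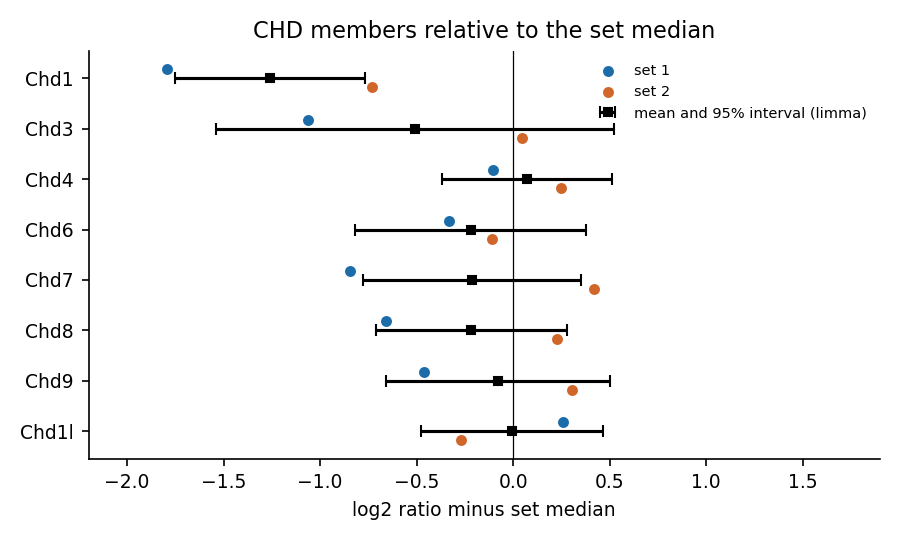
Log2 ratio of Chd1-null over control minus the set median for the 8 members, with set 1 in blue, set 2 in orange and the limma mean with its 95% interval in black. The interval of Chd1 lies below 0, those of the 7 paralogs include 0, and 6 of the 7 paralogs, all but Chd6, have set 1 and set 2 on opposite sides of 0.

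The sets placed the paralogs differently. In set 1, 6 of the 7 lay below the set median, and in set 2, 5 lay above it. None lay above both medians, and Chd6 alone lay below both (relative log2 ratios -0.33 and -0.11). Chd3, Chd4, Chd7, Chd8 and Chd9 were below the median in set 1 and above it in set 2, a combination held by 25.4% of all tested genes. Chd1l was above the median in set 1 (0.26) and below it in set 2 (-0.27). Chd7 stood farthest apart, at -0.85 and 0.42. With 1 library per group in each set, this difference between the sets has no test.

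**Figure D3:**
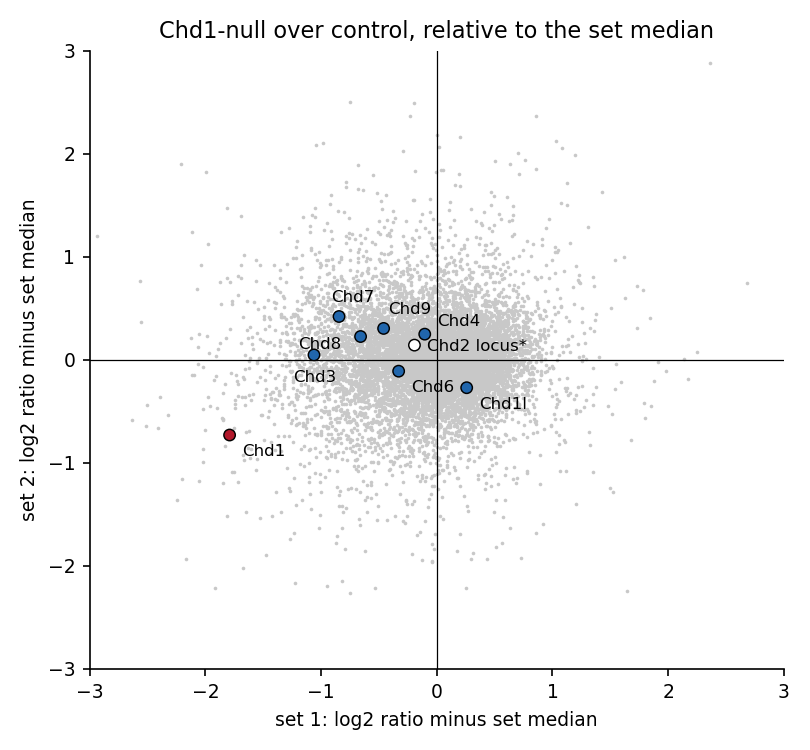
Log2 ratio minus the set median in set 1 (x axis) and set 2 (y axis), with tested genes in grey, Chd1 in red, the paralogs in blue and the merged Chd2 locus in white; 9 genes lie outside the drawn range. Chd1 lies low in both sets, while Chd3, Chd4, Chd7, Chd8 and Chd9 lie to the left of 0 and above it.

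Coding length went with this pattern, but its part in the difference between the sets was not tested. With 1 library per group in each set, it cannot be told apart from other differences between the sets. The members other than Chd1l have coding sequences of 5133 to 8958 bases, and Chd1l has 2700. Among all tested genes, the 418 with at least 5000 coding bases had a median log2 ratio of -0.997 in set 1 and -0.12 in set 2. The 5292 genes with fewer than 1500 coding bases had medians of -0.32 and -0.38. Of the 418 long genes 97.4% had a lower ratio in set 1 than in set 2, as did 57.9% of all tested genes, and 73.2% were below the median in set 1 and above it in set 2. The opposite order of Chd1l, the shortest member, was not shared by the 500 genes nearest to it in coding length, with medians of -0.63 and -0.28.

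Set against the 500 tested genes of nearest coding length, the paralogs were split nearly evenly in each set. In set 1, 4 of 7 lay above those genes' median and in set 2 again 4, with a median difference of 0.05 in set 1 and 0.03 in set 2. Chd1l was at 0.43 and -0.32, the widest gap among the paralogs, and Chd6 at 0.18 and -0.31. Chd7 was at -0.34 and 0.22, and Chd8 at -0.16 and 0.03. Chd4 was above its length-matched genes in both sets (0.35 and 0.07), as was Chd9 (0.05 and 0.11), while Chd3 was below them in both (-0.61 and -0.14). Chd1 was at -1.37 and -0.87, below its length-matched genes in both sets. With each set's trend on coding length removed, an alternative chosen after seeing the data, Chd1 still fell (limma, relative log2 change -1.13, adjusted p = 0.00059) and no paralog passed.

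**Figure D4:**
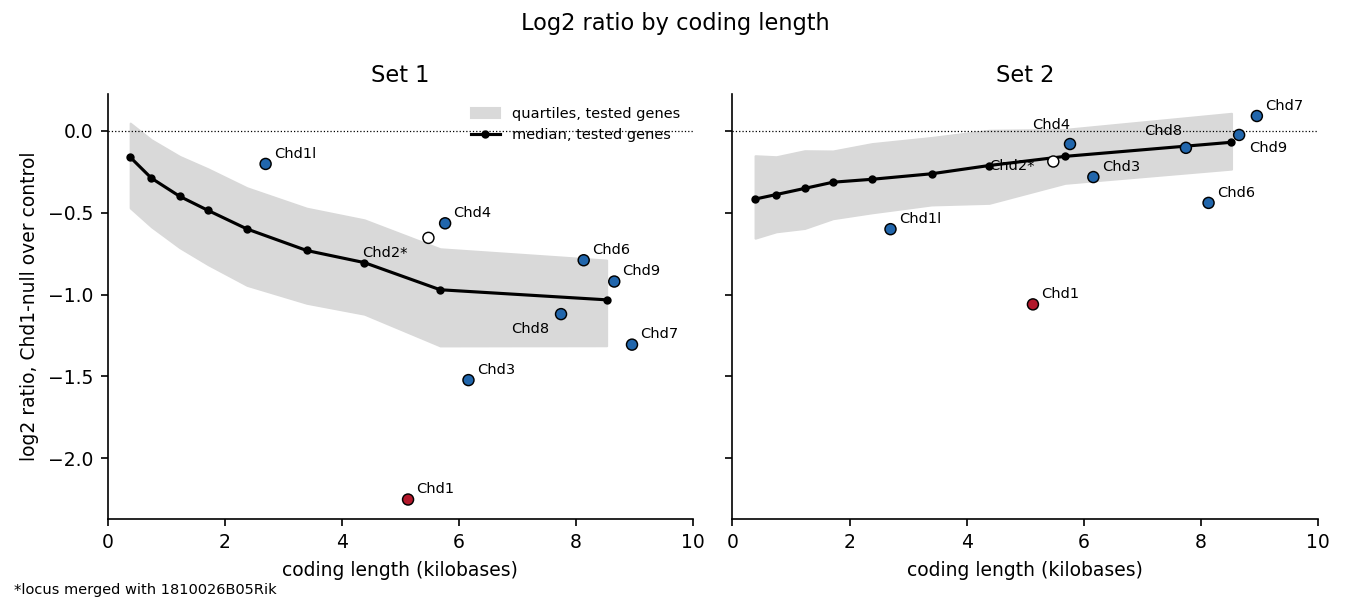
Log2 ratio of Chd1-null over control against coding length in kilobases for set 1 (left) and set 2 (right), with the median (black) and quartiles (grey) of tested genes by length and the members as points. The median of tested genes runs downward with length in set 1, to -1.03 in the longest class, and upward in set 2, to -0.07, and Chd1 lies below the grey band in both.

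Expression level was compared in the same way. Against the 500 tested genes nearest in level, 1 of 7 paralogs lay above their median in set 1 and 4 of 7 in set 2. The median differences were -0.37 and 0.27. Chd4, the highest member, was at -0.37 in set 1 and 0.30 in set 2 on this measure.

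Other ATPases of the Snf2 class, to which CHD motors belong, were read beside the family on the deposited scale, on which 9.80% of all tested genes fell and 0.0682% rose. Calls in this and the other gene lists below did not pass in limma without set as a block or with one prior variance. Of 19 tested ATPases 1 fell and 0 rose, a share no higher than that background, and their median log2 ratios were -0.59 (set 1) and -0.25 (set 2), against -0.46 and -0.33 over all tested genes. The gene that fell was Hells, a remodeler needed for DNA methylation (by 0.53, limma adjusted p = 0.0271). The ISWI motor Smarca5 stood at 106.3 and 85.3 FPKM in set 1 and at 87.5 and 89.5 in set 2, and was named after its values were seen. Relative to the set medians 0 of the 19 passed.

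Partners of the members were read from lists of known complexes. Of 12 NuRD subunits other than Chd3 and Chd4, 3 fell and 0 rose, beside 9.80% and 0.0682% of all tested genes (medians -0.55 and -0.33). They were the methyl-CpG-binding-domain protein Mbd3 (by 0.84, limma adjusted p = 0.0010), the scaffold Mta3 (by 0.92, adjusted p = 0.00050) and the deacetylase Hdac1 (by 0.56, adjusted p = 0.0351). Mbd3 stood at 52.9 and 30.1 FPKM in set 1 and at 49.9 and 27.5 in set 2. It was lower in both sets, as were 72.4% of all tested genes. Mta3 was lower mostly in set 2 and Hdac1 mostly in set 1. In the comparison with the set medians, 0 of the 12 passed in limma. Mbd3, Mta3 and Hdac1 had relative log2 changes of -0.44, -0.53 and -0.16 there (limma adjusted p of 0.786, 0.630 and 0.998).

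The next 4 lists had 1 call each, which at their size is near the 9.80% of all tested genes that fell. Of 12 elongation factors of the PAF, FACT and SPT groups, which work with Chd1 on transcribed chromatin, 1 fell and 0 rose (medians -0.30 and -0.27). It was the PAF subunit Cdc73 (by 0.86, adjusted p = 0.0139), mostly in set 1. Of 12 genes of the H3K4 methyltransferase complexes, which lay down the mark that Chd1 reads, 1 fell and 0 rose (medians -1.01 and -0.25). It was the cofactor Hcfc1 (by 0.84, adjusted p = 0.0032). Of 10 genes for histone H3.3 and its chaperones 1 fell and 0 rose (medians -0.57 and -0.23), the chaperone Daxx (by 0.58, adjusted p = 0.0361). Of 8 poly(ADP-ribose) genes tied to Chd1l 1 fell and 0 rose (medians -0.48 and -0.43), the ADP-ribose hydrolase gene Adprhl2 (by 0.66, adjusted p = 0.0239). Relative to the set medians, 0 genes of these lists passed in limma.

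The genes most like Chd1 in their pair of log2 ratios, by Euclidean distance over the 2 sets, were Cherp (distance 0.39), Ubqln2 (0.39) and Pabpc1 (0.40). Cherp, a splicing-related protein, stood at 15.2 and 3.26 FPKM in set 1 and at 8.73 and 5.41 in set 2. Ubqln2, a ubiquitin-binding shuttle protein, stood at 23.8 and 5.62 and at 13.6 and 8.22. Pabpc1, the cytoplasmic poly(A)-binding protein, stood at 436.1 and 119.8 and at 356.6 and 184.1. All 3 were chosen for these ratios, so their levels are a description and carry no test.

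The labelled cell type was checked against its markers. The 10 ES cell markers, among them Pou5f1, Sox2 and Nanog, summed to 2825 FPKM (control) and 2067 (Chd1-null) in set 1, and to 3553 and 1976 in set 2. All 10 were lower in the Chd1-null library of both sets, and 9 of 10, all but Pou5f1, fell on the deposited scale (limma; 9.80% of all tested genes did). Their median log2 ratios were -0.53 (set 1) and -0.99 (set 2), and relative to the set medians 0 of the 10 passed. Lists of fibroblast, primitive endoderm, trophectoderm and neural markers each summed to at most 51.9 FPKM. Only markers found by symbol in both sets enter these sums: 6 of 8 fibroblast, 2 of 7 primitive endoderm, 4 of 6 trophectoderm and 6 of 8 neural genes. The fibroblast sum was 10.6 FPKM (control) and 14.8 (Chd1-null) in set 1, and 46.7 and 18.9 in set 2, mostly through Acta2. The neural sum was 51.9 and 32.5 FPKM, then 38.0 and 30.9, and the trophectoderm sum 40.5 and 19.2, then 11.1 and 6.41. The part of these marker changes in the values of the family was not tested. In bulk RNA, fewer cells of a type and less RNA per cell cannot be told apart.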

How the data were processed

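The deposited values were taken as FPKM, in 1 table per set, beside the authors' ratio of knockout to control values. The unit is inferred, since the file headers do not write it: the submitters' processing notes name Cufflinks 2.2.0 and Cuffdiff, with TopHat2 2.0.10 and the build mm9. The authors' ratio columns equalled the quotient of the values to within a relative difference of 4.97e-06. Read depth is unknown, and the use of the spike-ins in scaling is not given in the sources used here. FPKM summed to between 466994 and 719549 per library, and the lowest value in either table was 0.100.

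Loci without a symbol, merged loci and repeated symbols were left out, and genes were joined by symbol. Tests used log2(FPKM + 0.1), on which changes of low genes come out too small. The test was limma 3.58.1 in R 4.3.3, with a variance trend on level, set as a block, two-sided, with Benjamini-Hochberg adjustment over 10261 genes at 0.05. Each set was its own table, so control and Chd1-null libraries were paired by set. Deviations of same-set libraries correlated across genes (r = 0.483). This leaves 1 residual degree of freedom, and limma's prior degrees of freedom were Inf, so the spread is one shared by genes of similar level. Coding lengths (93.8% of tested genes) and sequences came from GENCODE vM21 (GRCm38), used for no coordinate of the files, which give none. The members and lists were chosen with earlier results of these data known. Named were all members, up to 3 called genes per list and the 3 genes nearest to Chd1 with a mean of at least 5 FPKM.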

Additional observations from a re-analysis of the deposited data

How the results depend on the processing

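Among the 7 paralogs no setting gave a call in either direction. With 1 member (Chd1) called lower on each scale, 0 were called with one common prior variance, with no replicate block and after removing the level trend, and, for the relative comparison, also with a mean of at least 5 FPKM. The log2 fold change of Chd1 on the deposited scale was then -1.66 (adjusted p = 0.288), -1.66 (without the block, 0.461) and -1.68 (0.0645). Over all settings with a test its adjusted p ran from 1.7e-09 to 0.461. Over single sets the value ran from -2.25 to -1.06, with no test. The relative change of Chd1 was -1.30 with the stricter filter (adjusted p = 0.156), -1.26 with one prior variance (0.433), -1.23 without the block (0.9999) and -1.27 with the level trend removed (0.176). The cause of these losses was not tested.

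Over all genes, 1006 fell and 7 rose on the deposited scale. With a pseudocount of 1, 4 rose. The stricter filter gave 225 and 2, library totals 37 and 50, the level trend removed 22 and 0, and the coding length trend removed 1857 that fell. In the relative comparison (22 and 15) these were 3 and 2 with the stricter filter, 6 and 1 with the level trend and 41 that fell with the coding length trend. One common prior variance gave 0 on both scales (1718 and 614 unadjusted), and no block likewise (1043 and 154).

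Directions of small, uncalled changes turned. Chd4 was 0.076 with library totals and, relative, -0.024 with the level trend removed. Chd9 was 0.10 relative with the coding length trend removed. Chd1l, at -0.01 relative, was 0.0012 with no filter, 0.026 without the block and 0.058 with the coding length trend removed. The planned trend on RefSeq protein length was not run and was replaced by coding length. Counts of calls from 1 set alone could not be had, since 1 pair leaves no residual degree of freedom.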
